A study of Mus musculus with 12 samples.

Results

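The clustered protocadherin genes were examined in the open chromatin of mouse dorsal root ganglia. They were taken as all RefSeq protein-coding genes of chromosome 18 (mm10) whose symbol begins with Pcdha, Pcdhb or Pcdhg followed by a letter or digit. This gave 57 of the 21900 protein-coding genes in the gene table: 14 in the alpha cluster, 22 in the beta cluster and 21 in the gamma cluster. Accessibility was mapped with ATAC-seq, which marks open DNA by where a transposase cuts, in lumbar ganglia, which hold sensory neurons with their glia, vessels and immune cells. The 4 groups were wild-type sham-operated, wild-type with a crushed sciatic nerve (injured), Silc1-/- sham-operated and Silc1-/- injured mice, with 3 libraries each. Silc1 is a long noncoding RNA gene on another chromosome. The labels do not give the age of the mice, the time after surgery, how Silc1 was disrupted or whether the wild-type mice were littermates of the Silc1-/- mice. The files hold 1 summit list per group. The values below thus have no replicates and no test, and whether an absent summit reflects fewer cells with open DNA or less open DNA per cell cannot be told apart in whole ganglia.

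Clustered protocadherins are cadherin-like adhesion proteins that give single neurons a surface identity and take part in self-avoidance of their branches. In the alpha and gamma clusters, each gene has its own promoter and large first exon, which is spliced to constant exons shared by the whole cluster, whereas each beta gene consists of a single exon. Most members are alternate isoforms, whose promoters are chosen at random in each neuron with the help of CTCF and cohesin, which loop a distant enhancer to the chosen promoter. The C-type genes Pcdhac1, Pcdhac2, Pcdhgc3, Pcdhgc4 and Pcdhgc5 are regulated differently and are generally more evenly expressed among neurons. Known enhancers include ones between the alpha and beta clusters and downstream of the gamma cluster, which is not a complete list. Their positions were not in the files, so no summit is assigned to one here.

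The 3 clusters lie side by side. The alpha cluster spans 36930285 to 37188897 (258.6 kb), the beta cluster 37264998 to 37521419 (256.4 kb) and the gamma cluster 37661775 to 37841873 (180.1 kb). The upper ends of the 21 gamma genes lay within 10 bp of each other, and those of the 14 alpha genes within 1240 bp, as shared constant exons require. The lower coordinate was therefore taken as the start of each member, also in the beta cluster, whose genes run in the same direction. Each of the 57 members had 1 RefSeq transcript. From 100 kb before the first to 200 kb after the last member, 1.21 Mb in all, the lists held 13 summits (sham) and 20 (injured) in wild type, and 27 (sham) and 23 (injured) in Silc1-/- ganglia. Among wild-type summits they made up 0.0477% in sham (95% Wilson interval 0.0279 to 0.0815) and 0.0456% in injured ganglia (0.0295 to 0.0705). Among Silc1-/- summits they made up 0.0559% in sham (0.0384 to 0.0813) and 0.0642% in injured ganglia (0.0428 to 0.0964). The intervals cover counting error only, and all 4 overlap. In summits per Mb, the region held 10.7 (sham) and 16.5 (injured) in wild type, where the autosomes and X held 10.3 and 16.6. In Silc1-/- ganglia it held 22.3 (sham) and 19.0 (injured), where the autosomes and X held 18.3 and 13.5. The lengths of the autosomes and X include unsequenced DNA. As a whole, flanks and gaps included, the region was about as dense in summits as the genome in wild type. It was somewhat denser in Silc1-/- ganglia, a difference that was not tested. In every list, most of these summits lay outside the clusters themselves.

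The summits were unevenly spread over the region. Inside the 3 clusters themselves lay 2 summits (sham) and 5 (injured) in wild type, and 8 (sham) and 6 (injured) in Silc1-/- ganglia. The alpha cluster held 1, 2, 5 and 5 of these in that order of lists, the gamma cluster 1, 3, 3 and 1, and the beta cluster 0 in each. Series of 4 values here and below follow the order wild-type sham, wild-type injured, Silc1-/- sham, Silc1-/- injured. The 200 kb after the gamma cluster held 9, 12, 14 and 9, and the 140.4 kb between the beta and gamma clusters 2, 3, 3 and 5. The 76.1 kb between the alpha and beta clusters held 0, 0, 1 and 1, and the 100 kb before the alpha cluster 0, 0, 1 and 2.

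**Figure D1:**
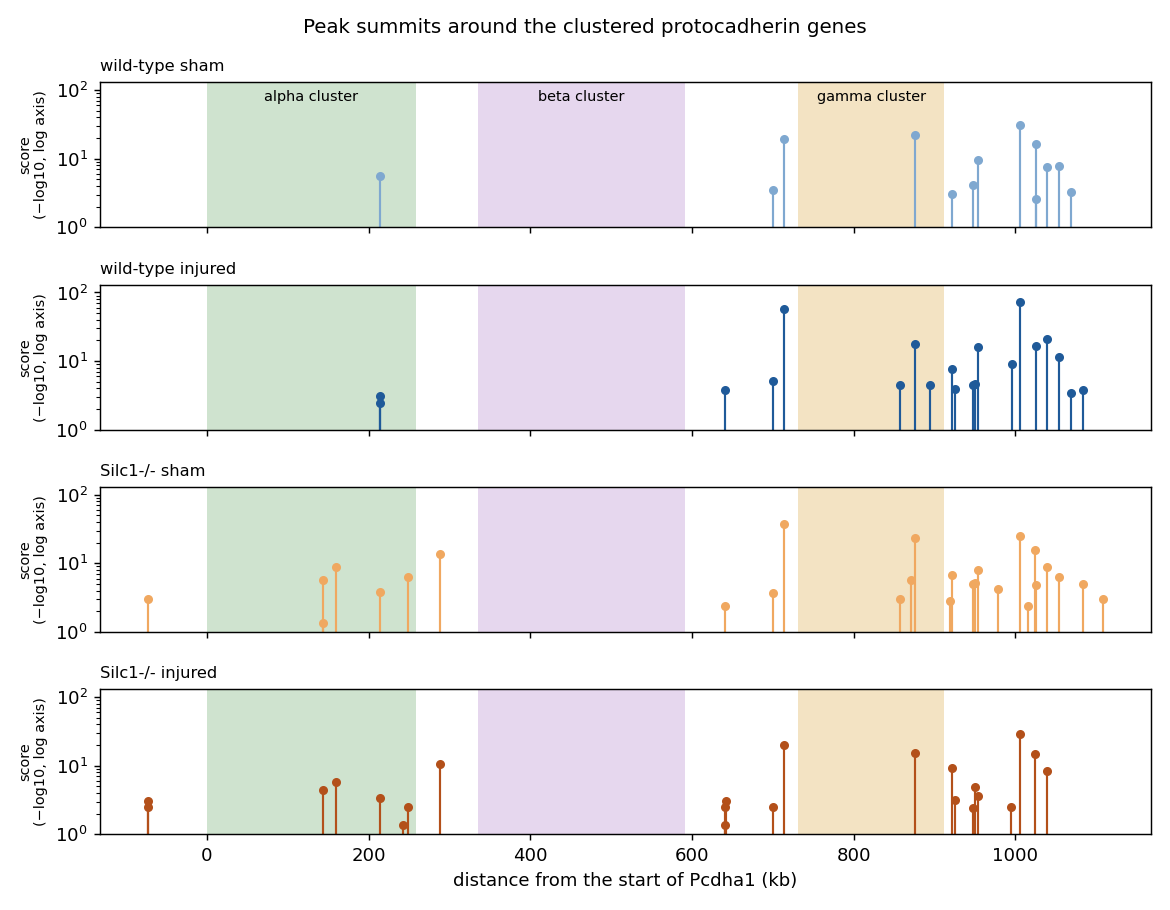
Each stem is 1 peak summit, placed by its distance from the start of Pcdha1 (x axis, kb) with the authors' score as its height (y axis, −log10 scale, drawn on a log axis), in 1 panel per list. The beta cluster is empty in all 4 panels, and the alpha cluster holds 1 and 2 summits in the wild-type lists but 5 in each Silc1-/- list.

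Few members had a summit at their start. Within 1 kb of the start, a summit was found at 2 of 57 members in each wild-type list and at 3 of 57 in each Silc1-/- list. Among the 17492 protein-coding genes whose start could be taken from RefSeq promoters, none of them on chromosome 18, the same rule called 45.8% (sham) and 50.7% (injured) in wild type, and 49.6% (sham) and 44.9% (injured) in Silc1-/- ganglia. The members called were Pcdhac1, Pcdhac2 and Pcdhgc3, all of the C type. Thus 3 of the 5 C-type genes had a summit at the start in at least 1 list, and 0 of the other 52 members did. The members are neighbours with related sequences, and are not independent of each other. The number of members called stayed at 2 or 3 in each list when the distance was 500 or 2500 bp.

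Pcdhgc3, a C-type gene of the gamma cluster (gene ID 93706, 37806410 to 37841873), had the highest-scoring summit of any member in every list. The score is a peak value of the authors, on a −log10 scale, and is ranked here only within its list. In wild-type sham ganglia the summit lay at 37806355, 55 bp before the start, with a score of 22.2, at percentile 85.9 of its list. In wild-type injured ganglia it lay at 37806310, 100 bp before the start (score 17.5, percentile 81.0). In Silc1-/- sham ganglia it lay at 37806359, 51 bp before the start (23.5, percentile 91.6), and in Silc1-/- injured ganglia at 37806311, 99 bp before the start (15.1, percentile 86.1). Hence this promoter was among the higher-scoring sites of all 4 lists. The summits of both sham lists lay within 4 bp of each other, as did those of both injured lists within 1 bp, and all 4 within 49 bp.

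Pcdhac2, the last variable exon of the alpha cluster (gene ID 353237, 37143678 to 37187663), also had a summit in every list, but lower in rank and after the start. The wild-type sham summit lay at 37143903, 225 bp after the start (score 5.59, percentile 45.5). The wild-type injured list had a pair of summits, at 37143813 (2.48) and at 37144079, 401 bp after the start (3.07, percentile 18.7). The Silc1-/- sham summit lay at 37143973, 295 bp after the start (3.76, percentile 38.4). The Silc1-/- injured summit lay at 37144248, 570 bp after the start (3.38, percentile 32.7). Every one of these lay below the middle of its list, and the positions spread over 435 bp, against 49 bp at Pcdhgc3. When each list was cut to the length of the shortest, the lowest scores kept were 4.49 in wild-type injured and 4.29 in Silc1-/- sham ganglia, above those at Pcdhac2, which was then called in the other 2 lists only.

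Pcdhac1, the other C-type gene of the alpha cluster (gene ID 353236, 37090136 to 37187657), had a summit in the Silc1-/- lists only. It lay at 37089979 in Silc1-/- sham (score 8.73, percentile 73.4) and at 37089980 in Silc1-/- injured ganglia (5.80, percentile 59.1), 157 and 156 bp before the start. The nearest wild-type summits were those at Pcdhac2, 53.9 kb away in wild-type sham and 53.8 kb away in wild-type injured. This pattern, a summit of both Silc1-/- lists and of no wild-type list at the start, was thus shown by 1 of 57 members, or 1.75%. It was shown by 0.492% of the 17492 protein-coding genes.

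The remaining C-type genes, Pcdhgc4 (gene ID 93707, start 37815079) and Pcdhgc5 (gene ID 93708, start 37819546), had no summit within 1 kb of the start. They were the members nearest to the limit on its outer side. The nearest summit to Pcdhgc5 was a wild-type injured one at 37824413 (score 4.40), 4.87 kb inside the gene, and in the other lists the nearest lay 13.2 kb away. For Pcdhgc4 the nearest summit was that of Pcdhgc3, between 8.72 and 8.77 kb away. On the inner side of the limit, Pcdhgc3, Pcdhac2 and Pcdhac1 had their nearest summits at 0.051, 0.135 and 0.156 kb.

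Alternate promoters were far from any summit. For the 12 alternate alpha genes, Pcdha1 to Pcdha12, the nearest summit of any list lay between 53.1 kb (Pcdha12) and 105.7 kb (Pcdha6) from the start, with a median of 81.0 kb. For each of the 12 this was a Silc1-/- summit. In the wild-type lists the distance was shortest at Pcdha12, at 123.7 kb (sham) and 123.6 kb (injured). For the 18 alternate gamma genes the distance ran from 17.5 kb at Pcdhga1 to 70.6 kb at Pcdhga7, with a median of 43.2 kb. For the 22 beta genes it ran from 46.7 kb at Pcdhb1 to 170.4 kb at Pcdhb9, with a median of 95.6 kb. For Pcdha12 and its neighbours the nearest summit of any list lay inside the alpha cluster, upstream of Pcdhac1, and for Pcdhga12 and its neighbours inside the gamma cluster, upstream of Pcdhgc3. Related genes outside the definition gave the same picture. Gm37013, Gm38666 and Gm38667 are RefSeq coding genes that begin 41, 6 and 9 bp from the starts of Pcdha4, Pcdha6 and Pcdha7 and end with the gamma cluster. Their nearest summits lay 94.6, 105.7 and 99.5 kb from their starts. For Pcdhgb8, a transcribed pseudogene of the gamma cluster, the nearest summit lay 25.7 kb from the start.

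**Figure D2:**
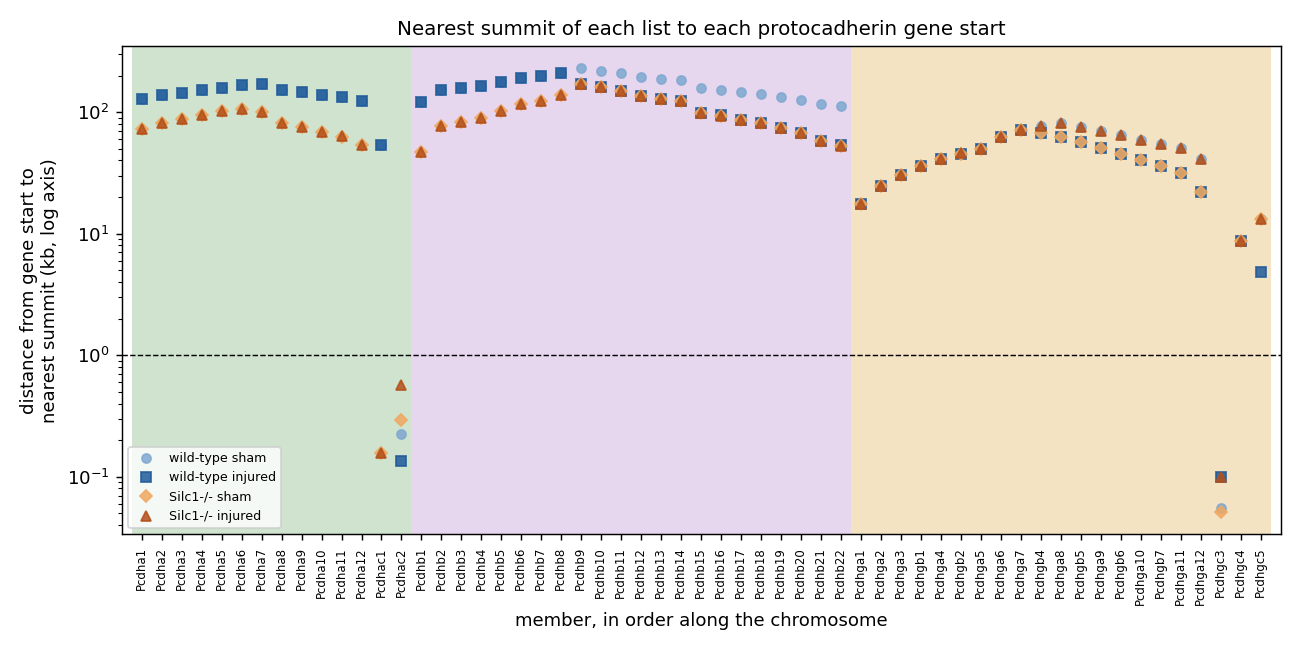
For each of the 57 members in chromosomal order (x axis), the distance from its start to the nearest summit of each list is shown (y axis, kb, log axis), with 1 marker shape per list and the dashed line at 1 kb; markers of several lists often overlap. Only Pcdhac1 (in the Silc1-/- lists), Pcdhac2 and Pcdhgc3 lie under the line.

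The beta cluster formed the longest empty stretch. The 22 beta genes had no summit in the gene, between the genes or within 1 kb of either end in any list. The summit-free stretch that covers the cluster was longest in wild-type sham ganglia, at 486.9 kb (from Pcdhac2 at 37143903 to 37630810), and 427.5 kb long in wild-type injured ones. It was 353.1 kb (sham) and 352.9 kb (injured) long in Silc1-/- ganglia. The Silc1-/- stretches began at a summit between the alpha and beta clusters, at 37218310 (sham) and 37218308 (injured). They ended at 37571386 (sham) and 37571215 (injured), in a locus that also ended the wild-type injured stretch, at 37571550. When the autosomes and X were tiled with 10253 windows as long as the beta cluster, 7.96% had no summit in any list. The tiling began at position 1 and left in unsequenced DNA, which can hold no summit and so raises this share. Of the 368 windows that hold the lower ends of at least 10 protein-coding genes, on either strand, 2.45% had none. The windows describe how common such stretches are and are not a test.

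Merging summits that lay within 200 bp of the next gave 37 loci in the region, of which 9 were held by all 4 lists (24.3%, against 18.3% of the 78381 loci of the whole lists), 3 by 3 lists, 11 by 2 lists and 14 by 1 list (37.8%, against 52.4%). Of the 9 shared by all lists, 2 were the starts of Pcdhac2 and Pcdhgc3, 4 lay at an end of another coding gene and 3 lay inside Diaph1. All loci of a single list had scores of 1.35 to 9.05.

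Loci held by both Silc1-/- lists and by no wild-type list were gathered in and beside the alpha cluster. There were 6 such loci in the region, or 16.2%, against 4.38% of all loci. Loci of both wild-type lists alone numbered 2, or 5.41%, against 2.38%. The highest-scoring of the 6 lay between the alpha and beta clusters, at 37218310 in Silc1-/- sham (score 13.9, percentile 83.7) and at 37218308 in Silc1-/- injured ganglia (10.6, percentile 78.4). The nearest wild-type summits to it were 74.4 kb away in sham and 74.2 kb away in injured ganglia. It lay 46.7 kb before Pcdhb1. The summit at Pcdhac1 came next in score. Another locus, 16.3 kb before Pcdhac1, lay at 37073878 in Silc1-/- sham (5.67, percentile 57.6) and at 37073935 in Silc1-/- injured (4.39, percentile 46.3), 70.0 and 69.9 kb from the nearest wild-type sham and injured summits. A further one lay 35.0 kb after the start of Pcdhac2, at 37178634 (6.40, percentile 62.8) and 37178608 (2.48, percentile 16.4), 34.7 and 34.6 kb from the nearest wild-type summits. One more lay before the alpha cluster, 72.7 kb from Pcdha1, at 36857658 in Silc1-/- sham (3.01, percentile 24.8) and 36857588 in Silc1-/- injured (3.09, percentile 27.5). The positions in both Silc1-/- lists were 1 or 2 bp apart at Pcdhac1 and at the site between the clusters, and 26 to 70 bp apart at the other 3 loci.

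The last of the 6 was a matter of joining distance. Upstream of Pcdhga1, the Silc1-/- summits lay at 37630591 (sham, 3.63) and 37630546 (injured, 2.48), and the wild-type summits at 37630810 (sham, 3.54) and 37630858 (injured, 5.19). The nearest were 219 bp apart, so that they formed 1 locus of both Silc1-/- lists and 1 of both wild-type lists, and joining within 500 bp made them 1 locus of all 4 lists. This left 5 loci of both Silc1-/- lists that had no wild-type summit within 500 bp. The other locus of both wild-type lists lay in Arap3, at 37998688 (sham, 3.31) and 37998695 (injured, 3.39). The latter was 836 bp from the upper end of Arap3, within the 1 kb used for gene ends.

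From the start of Pcdha1 to that of Pcdhb1, 334.7 kb, there were 4 loci of both Silc1-/- lists alone. Among 7852 windows of this length over the autosomes and X, again with unsequenced DNA left in, 0.267% held at least as many. This stretch was chosen after its summits had been seen, so the share is a description. When each list was cut to the 27279 highest-scoring summits, the length of the shortest list, 3 of the 6 loci kept a summit in both Silc1-/- lists: those at 37073878, at Pcdhac1 and at 37218310. At scores of at least 5, 2 were left, at Pcdhac1 and at 37218310. Of 12 sensory neuron markers, the number with a summit within 1 kb of an end was 5 (sham) and 8 (injured) in wild type, and 10 (sham) and 7 (injured) in Silc1-/- ganglia. These were 41.7, 66.7, 83.3 and 58.3%, against 46.2, 51.9, 50.8 and 45.6% of all protein-coding genes. The part of neuron content in the alpha cluster loci was not tested.

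**Figure D3:**
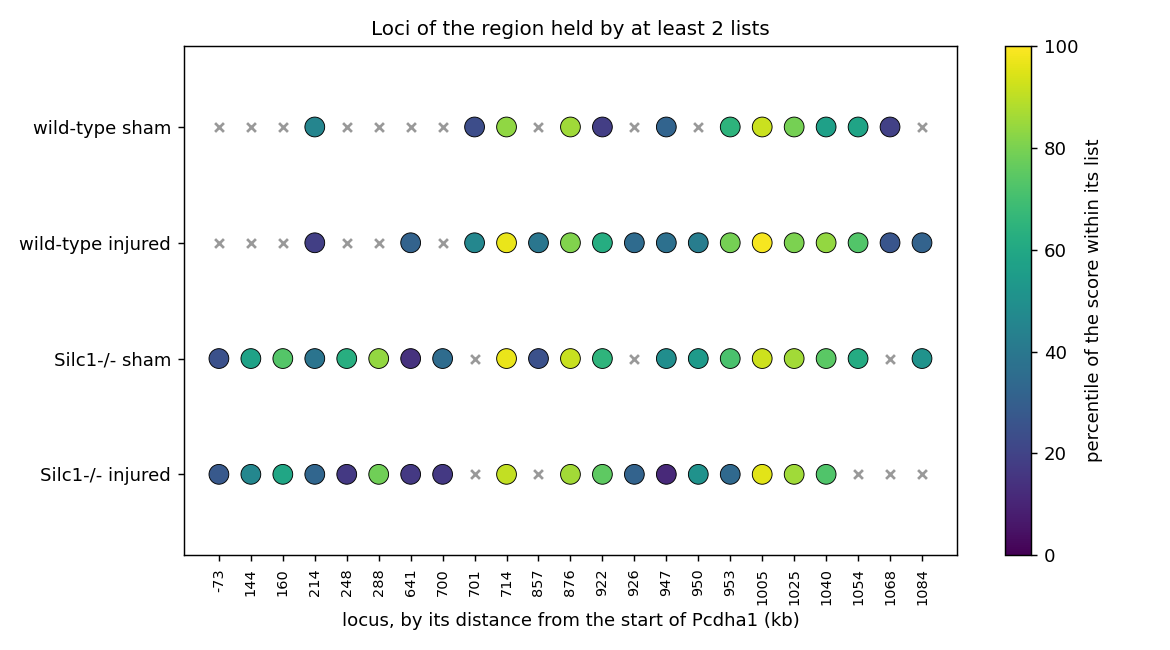
The loci held by at least 2 lists are shown in order, labelled by their distance from the start of Pcdha1 (x axis, kb), for the 4 lists (y axis); circles are coloured by the percentile of the score within its list, and crosses mark lists without a summit. The wild-type rows have crosses at 5 of the 6 loci up to the one between the alpha and beta clusters, the exception being Pcdhac2. Most of the loci shown from Taf7 onward were held by lists of both genotypes. The 14 loci of a single list are not shown.

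In the gap between the beta and gamma clusters, the strongest site belonged to another gene. Taf7, a subunit of the general transcription factor TFIID (gene ID 24074, 37640491 to 37644204), had a summit at its upper end in every list. The scores there were 19.5 (sham, percentile 83.3) and 57.1 (injured, percentile 96.9) in wild type, and 38.1 (sham, percentile 96.8) and 19.9 (injured, percentile 90.9) in Silc1-/- ganglia. Slc25a2, a mitochondrial carrier gene beside it, had no summit within 1 kb of either end. This Taf7 site was also the nearest one to Pcdhga1, 17.5 to 17.6 kb from its start. A weaker locus, 53.2 kb after the start of Pcdhb22, was held by all lists but wild-type sham, a class of 4.67% of all loci, with scores of 3.82 in the wild-type injured list and 2.42 (sham) and 2.48 (injured) in Silc1-/- ganglia.

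Inside the gamma cluster, summits other than that at Pcdhgc3 were few and lower in score. At 37787518 in wild-type injured (score 4.49) and 37787585 in Silc1-/- sham ganglia (3.01), 18.9 kb before Pcdhgc3, lay a locus of these lists alone, a class of 6.05% of all loci and of 2 of the 37 here. The Silc1-/- sham list held a further summit at 37800979 (5.67, percentile 57.6), 5.43 kb before Pcdhgc3. Together with the wild-type injured summit near Pcdhgc5 these were all the other summits of the gamma cluster.

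Diaph1, a formin that nucleates actin filaments (gene ID 13367, 37843601 to 37935622), lies 1.73 kb beyond the shared end of the gamma genes and held a group of sites. Over 1 kb from its ends there were 9 loci in its 92.0 kb, from 7.73 to 84.2 kb after the gamma cluster, with 3 summits in wild-type sham and 6 in each of the other lists. Those held by all 4 lists were 3. At 37852339 the scores were 3.08 (sham) and 7.57 (injured) in wild type, and 6.79 (sham) and 9.23 (injured) in Silc1-/- ganglia. At 37877500 they were 4.20, 4.41, 4.92 and 2.39 in the same order. At 37883668 they were 9.47, 15.8, 8.02 and 3.61, at percentiles 64.7, 79.2, 71.5 and 34.0. Between the last pair, a locus at 37880333 was held by all lists but wild-type sham with scores of 4.60 in the wild-type injured list and 5.22 (sham) and 4.92 (injured) in Silc1-/- ganglia. No locus inside Diaph1 was held by both lists of one genotype and neither of the other.

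Farther downstream, the ends of other genes carried the remaining shared sites. The upper end of Diaph1 had scores of 31.0 (sham) and 72.5 (injured) in wild type, and 25.1 (sham) and 29.0 (injured) in Silc1-/- ganglia. These were the highest of the region in every list except Silc1-/- sham, where Taf7 was higher. The facing ends of Hdac3, a histone deacetylase, and Rell2 shared a summit with scores of 16.5, 16.6, 15.9 and 14.7. The upper end of Fchsd1, which encodes a membrane-bending adaptor, had scores of 7.45, 20.6, 8.89 and 8.36. Inside Arap3, a regulator of small GTPases, a summit at 37984499 was held by all lists but Silc1-/- injured, a class of 3.4% of all loci (7.86, 11.6 and 6.23). A weak locus beyond Arap3 was held by wild-type injured (3.82, at 38013958) and Silc1-/- sham (4.97, at 38013943).

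In the lists as deposited, none of the 3 called members gained or lost its summit between sham and injured ganglia of the same genotype. At equal list lengths the number called was 2 (sham) and 1 (injured) in wild type, and 2 (sham) and 3 (injured) in Silc1-/- ganglia, through Pcdhac2. At scores of at least 5 it was 2 and 1 in wild type, and 2 in each Silc1-/- list. In wild type, 7 loci of the region were present in the injured and not the sham list (18.9% of the 37, against 29.4% of all loci), and 1 the other way (2.70%, against 8.44%). In Silc1-/- ganglia, 5 were present in the injured list alone (13.5%, against 16.4%) and 10 in the sham list alone (27.0%, against 32.1%). A single locus was held by both injured lists and neither sham list (2.70%, against 2.72%). It lay inside Diaph1, at 37855935 in wild-type injured (score 3.90) and 37856027 in Silc1-/- injured ganglia (3.15), with the nearest sham summits 3.60 kb away in wild type and 3.69 kb away in Silc1-/-. No locus was held by both sham lists alone, against 1.51% of all loci. These shares of loci lay near or below those of all loci.

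Between genotypes, 17 loci were in the Silc1-/- sham and not the wild-type sham list (45.9%, against 36.2% of all loci) and 3 the other way (8.11%, against 9.74%). After injury, 10 were in Silc1-/- and not wild type (27.0%, against 17.6%) and 7 in wild type and not Silc1-/- (18.9%, against 27.8%). Inside the alpha cluster the numbers in Silc1-/- and not wild type were 4 in sham and 4 in injured ganglia, and none were the other way. In each count, 1 of the 4 was a weak locus of a single list. These lay at 37073350 in Silc1-/- sham (score 1.35, percentile 0.93) and at 37172459 in Silc1-/- injured ganglia (1.38, percentile 1.19). The smallest score in the lists is 1.30. In the 200 kb after the gamma cluster the numbers in Silc1-/- and not wild type were 7 in sham and 1 in injured, against 2 and 4 the other way. Few loci stand behind each count for a part of the region, and no share was formed.

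Other groups of genes were set beside the members by counting summits within 1 kb of either gene end, so that genes on either strand could be included. By this rule, too, 2, 2, 3 and 3 of the 57 members were called (3.51% in each wild-type list and 5.26% in each Silc1-/- list), against 46.2% (sham) and 51.9% (injured) of all 21900 protein-coding genes in wild type, and 50.8% (sham) and 45.6% (injured) in Silc1-/- ganglia. Vomeronasal receptor genes, another large family in gene clusters, which is expressed in the vomeronasal organ, were called less, at 3 of 355 in any list (0.845%). Hox genes, which set position along the body axis, were called at 20 of 39 in any list (51.3%, against 56.6% of all protein-coding genes), but at 2 of 39 in every list (5.13%, against 40.8%). No test of these differences was made.

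The non-clustered protocadherins, which are single genes of the same superfamily, were called more often. Of 12, the number with a summit was 4 (sham) and 7 (injured) in wild type, and 6 in each Silc1-/- list, and 4 were called in every list (33.3%, against 40.8%). Pcdh10 had scores of 5.52 (sham) and 15.5 (injured) in wild type, and 24.97 (sham) and 8.96 (injured) in Silc1-/- ganglia. Pcdh17 had scores of 13.6, 21.2, 13.5 and 14.3 in the same order. Pcdh1, downstream on the same chromosome, had 9.85, 18.03, 17.2 and 3.87, of which the Silc1-/- sham one lay at the other gene end. Pcdh9, Pcdh11x, Pcdh12, Pcdh15 and Pcdh20 had none. The share of called genes was thus higher among these single genes than among the clustered ones, with no test made.

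Genes whose products act on the clusters were called at shares above those of all protein-coding genes, with no test made. Of 22 chromatin regulators of clustered protocadherin genes, the number with a summit was 15 (sham) and 14 (injured) in wild type, and 15 (sham) and 13 (injured) in Silc1-/- ganglia. These were 68.2, 63.6, 68.2 and 59.1%, against 46.2, 51.9, 50.8 and 45.6% of all protein-coding genes. Of the 22, 13 were called in every list (59.1%, against 40.8%). Ctcf, whose zinc finger protein binds the promoters and enhancers, had scores of 13.3 (sham) and 17.1 (injured) in wild type, and 13.9 (sham) and 9.69 (injured) in Silc1-/- ganglia. Smc3, a cohesin ring subunit, had 36.5, 57.5, 31.0 and 21.1. Smchd1, which represses clustered protocadherin genes, had 41.6, 69.7, 39.9 and 27.7. Dnmt3b, a DNA methyltransferase of their promoters, had a summit in both sham lists alone (3.46 in wild type and 3.29 in Silc1-/-). Rad21, Nipbl, Stag1, Wapl, Dnmt1, Dnmt3a and Tet1 had none within 1 kb of the ends of their gene spans. Starts that lie inside a gene span were not examined, so this does not show that these genes lack an open promoter. Of 17 partner and signalling genes, 12 were called in any list (70.6%, against 56.6% of all protein-coding genes) and 10 in every list (58.8%, against 40.8%). Ptk2, the focal adhesion kinase that clustered protocadherins inhibit, had scores of 14.7, 10.5, 14.4 and 7.80, and Wasf1, a subunit of the actin-regulating WAVE complex, had 30.1, 43.4, 27.9 and 23.2.

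**Figure D4:**
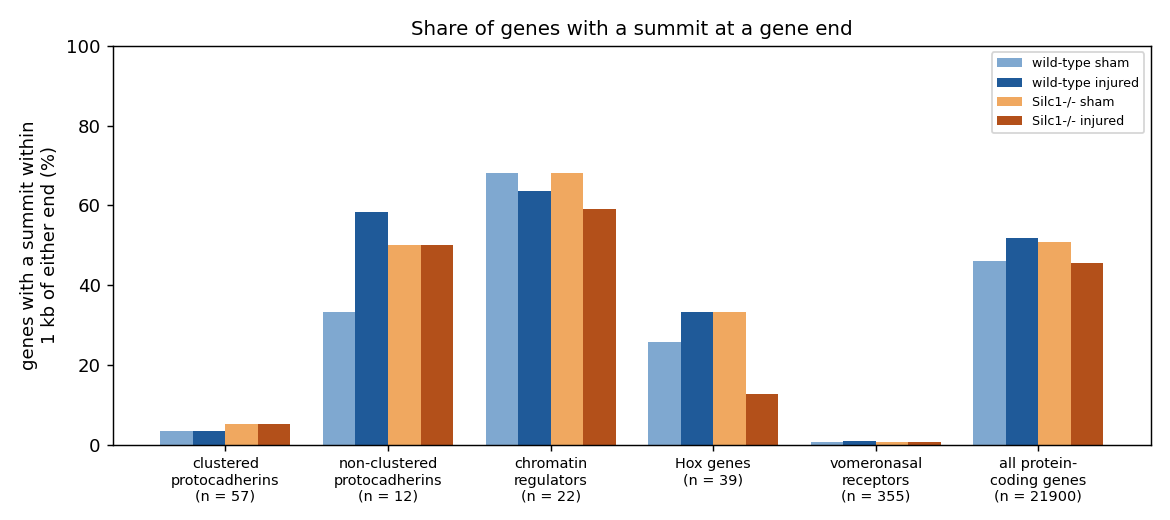
Bars give the percent of genes with a summit within 1 kb of either end (y axis) for each gene group (x axis, number of genes in parentheses), 1 bar per list and with no error bars since each group has 1 list. The clustered protocadherins reach 3.51 to 5.26%, against 45.6 to 51.9% of all protein-coding genes.

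The lists held 27279 summits (sham) and 43841 (injured) in wild type, and 48332 (sham) and 35815 (injured) in Silc1-/- ganglia, and the read depth behind them is unknown. Marker genes with a summit within 1 kb of an end numbered 2 to 5 of 6 for satellite glia, 1 or 2 of 7 for Schwann cells, 0 to 2 of 7 for endothelial and mural cells, 0 or 1 of 6 for macrophages and 0 or 1 of 5 for fibroblasts. Of genes of tissues outside the ganglion, 2 or 3 of 5 skeletal muscle genes and 0 or 1 of 5 hepatocyte genes had one. Over all protein-coding genes the share was 45.6 to 51.9% per list. A summit at a gene end can also belong to a neighbouring gene.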

How the data were processed

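ATAC-seq was deposited for 12 libraries, with 1 list of peak summits per group analysed here. The authors used Bowtie2 and MACS2 with mm10, per the submitters' processing notes; their versions, the read filters, the handling of reads that match several places and any pooling of libraries were not given in the sources used here. Each deposited line holds a position and the authors' score, which is −log10 of either a p-value or a q-value (not stated which), the smallest being 1.30. Summit numbers run without a break in all 4 lists. Positions were made 1-based and genes came from RefSeq (GRCm38.p6, the assembly of mm10). Neighbouring summits up to 200 bp apart formed 1 locus, and a percentile ranks a score within its list. Starts were compared at 1 kb, with 500 and 2500 bp, joining at 50 and 500 bp, scores of at least 5, equal list lengths and no flank as alternatives. All members were accounted for. To be named were members with a summit at the start, loci of at least 2 lists and single-list loci scoring at least 10 (0 were found). Weaker single-list loci in the alpha and gamma clusters were named after their values were seen. The members and lists were chosen with earlier results of these data known. The steps were tested on simulated data, in which 5000 of 5000 planted loci were recovered. The planted loci were far apart and their summits close together. The simulation thus did not cover summits near the joining distance, as found upstream of Pcdhga1. Python 3.11.15, numpy 2.4.6, pandas 2.3.3, scipy 1.17.1 and matplotlib 3.10.9 were used.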

Additional observations from a re-analysis of the deposited data

How the results depend on the processing

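At scores of at least 5 the region held 8 summits (sham) and 10 (injured) in wild type, and 14 (sham) and 8 (injured) in Silc1-/- ganglia; it held 17 loci, of which 5 were in all lists, 2 belonged to the Silc1-/- pair alone and 0 to the wild-type pair alone, and 1 member was called in wild-type injured. At equal list lengths the lists held 13 summits (sham) and 12 (injured) in wild type, and 18 (sham) and 15 (injured) in Silc1-/- ganglia. Of the loci, 3 then belonged to the Silc1-/- pair alone and 1 to the wild-type pair alone, and 1 member was called in wild-type injured. Without flanks the lists held 4, 8, 12 and 12 summits. Joining within 50 bp left 4 loci in all lists, and joining within 500 bp left 1 in both wild-type lists alone. Fewer summits, a shorter region or another joining rule enter these counts by construction. Calls at member starts were within 1.5 times at 500 and 2500 bp. No paired analysis was possible because each group has 1 list, and for the same reason no library could be left out. List lengths vary with depth, which is unknown, so an absent summit was not detected and is not shown to be closed.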
